A study of Homo sapiens with 9 samples.

Results

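The TCF/LEF transcription factors and the Wnt feedback genes measured here were 10 human genes: TCF7, TCF7L1, TCF7L2, LEF1, CTNNB1, AXIN1, AXIN2, LGR4, RNF43 and ZNRF3. They were chosen by name from the 20442 genes of the deposited expression table, and where a gene had several entries, one per annotated transcript, the entry with the highest mean over the 9 libraries stood for it. All 10 were present, with 2 to 14 entries each. The cells were PC9, a human non-small cell lung cancer line with an activating EGFR mutation, carrying the FUCCI4 reporter, whose mKO2-CDT1 and Clover-GMNN proteins mark cell cycle position. After 28 days of continuous 500 nM osimertinib, an EGFR kinase inhibitor, 4 libraries were made: G1 cells of clone 1, G1 cells of clone 7, S cells of clone 1 and G2 cells of clone 1. Untreated cells at day 0 gave 5 libraries: G1 cells of clone 1 and clone 7, S cells of clone 1 and clone 7, and G2 cells of clone 1. How the clones were made is not in the labels. All groups carried the reporter, and cells were fixed with glyoxal, permeabilised with saponin and sorted by DAPI and then by reporter colour before poly(A) RNA was sequenced. No library of vehicle-treated cells kept in culture for 28 days was among the 9, so drug and time in culture cannot be told apart. The labels do not say that libraries came from separate cultures, so p-values measure the spread between these libraries, which may be technical.

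In canonical Wnt signalling, a secreted Wnt ligand binds a Frizzled and LRP receptor pair, the destruction complex that AXIN and APC scaffold stops degrading β-catenin, and β-catenin enters the nucleus to join TCF/LEF factors on DNA. TCF7L1 is best known as a repressor, LEF1 and TCF7 more often as activators, and TCF7L2 as either. AXIN2, RNF43, ZNRF3 and LGR4 set the gain of the pathway: AXIN2 is a target gene that restrains β-catenin, RNF43 and ZNRF3 are membrane ubiquitin ligases that remove Frizzled receptors, and LGR4 is an R-spondin receptor that takes those ligases away from the receptor.

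The start regions of TCF7L1 and TCF7L2 are shown because these were the factors with the largest differences between days, and because TCF7L2 also has annotated starts inside the gene, in a stretch whose reads were not called different. The sequences are RefSeq's (GRCh38.p14), on the plus strand, with 250 bases before the annotated start in lower case and the 50 bases from the start on in capitals. They cover chr2:85133142-85133441 for TCF7L1, chr10:112949997-112950296 for the upstream TCF7L2 start and chr10:113126383-113126682 for the more upstream of its internal starts.
TCF7L1: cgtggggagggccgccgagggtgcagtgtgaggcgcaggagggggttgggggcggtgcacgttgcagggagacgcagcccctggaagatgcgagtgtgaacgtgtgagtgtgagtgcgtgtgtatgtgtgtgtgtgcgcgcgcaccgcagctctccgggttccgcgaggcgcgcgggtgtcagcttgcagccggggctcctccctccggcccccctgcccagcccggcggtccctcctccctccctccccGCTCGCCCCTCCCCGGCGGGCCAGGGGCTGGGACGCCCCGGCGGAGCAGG
TCF7L2 upstream start: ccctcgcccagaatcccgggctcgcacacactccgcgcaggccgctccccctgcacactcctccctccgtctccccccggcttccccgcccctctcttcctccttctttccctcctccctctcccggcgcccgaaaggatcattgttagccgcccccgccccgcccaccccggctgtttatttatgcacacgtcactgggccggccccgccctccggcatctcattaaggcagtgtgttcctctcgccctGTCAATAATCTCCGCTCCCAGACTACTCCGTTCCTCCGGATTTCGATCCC
TCF7L2 internal start: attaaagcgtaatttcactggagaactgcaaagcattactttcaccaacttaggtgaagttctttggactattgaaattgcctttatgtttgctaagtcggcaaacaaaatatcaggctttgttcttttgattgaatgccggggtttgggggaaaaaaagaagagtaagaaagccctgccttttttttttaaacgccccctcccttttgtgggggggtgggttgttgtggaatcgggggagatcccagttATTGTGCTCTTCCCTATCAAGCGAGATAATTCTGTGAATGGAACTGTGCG
The RefSeq table held 12 such windows for 8 of the members, all but AXIN2 and ZNRF3. The TCF/LEF core motif CTTTGAT, searched on both strands (ATCAAAG on the other), had no match in those 12 windows, and 2.64% of 27305 promoter windows of the same length held it. For LEF1 the window, chr4:108166252-108166551 on the minus strand, lay inside the coding span, which ends at 108167767. A LEF1 start upstream of that span was not searched. The GC content of the TCF7L1 window was 74.3%, that of the upstream TCF7L2 window 65.7% and that of the internal one 42.7%.

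Each deposited value was the log2 of a read count over a transcript's coding span, introns included, multiplied by 1 factor per library, and whole reads could be recovered from it. With M for mega, the libraries held 8.83 M reads (day 0 G1, clone 7) to 108.7 M reads (day 0 G1, clone 1) summed over 1 entry per gene, so that a read where genes overlap counts more than once. Long genes took more of the reads at day 28: spans over 300 kb held 2.06% to 3.41% of reads in day 28 libraries and 0.726% to 1.05% in day 0 libraries. Reads over 400 olfactory receptor genes, which few cells outside the olfactory epithelium use, had a density of 0.00820 to 0.0273 reads per kb and per M reads at day 28 and 0.00112 to 0.00492 at day 0. Epithelial markers (6 genes, among them EPCAM and KRT8) summed to 11966 to 23109 reads per M reads at day 28 and 18552 to 29589 at day 0. Leukocyte, fibroblast and endothelial lists each summed to at most 46.8 reads per M reads at day 28 and at most 17.2 at day 0. The 5 G2 and mitosis genes, CDC20 and PLK1 among them, were highest in the G2 library of each day, at 2183 reads per M reads at day 28 and 3333 at day 0. The 5 S phase genes were highest in the S library at day 28 (942), with 259.6 and 137 in G1 and 252 in G2. At day 0 they did not separate S from G1, with 1272 (clone 1) and 964 (clone 7) in S, 1083 (clone 1) and 949.5 (clone 7) in G1 and 580.3 in G2. Mitochondrial genes held 19.6%, 8.61%, 21.6% and 15.8% of reads in the day 28 libraries (G1 clone 1, G1 clone 7, S and G2) and 6.07% to 10.7% in day 0 libraries, and their part in the results below was not tested.

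At day 28, TCF7L1, TCF7L2, AXIN2, ZNRF3 and LGR4 were higher than at day 0, and CTNNB1 and TCF7 were lower. These were 7 of the 9 members that passed the filter on low values (RNF43 did not), tested with limma across all 12391 genes that passed, with phase as a covariate and Benjamini-Hochberg adjusted p under 0.05. The background was high: 55.1% of all tested genes were called, 28.6% higher and 26.6% lower. How many of all tested genes had no overlap between the days is not reported here, so the overlaps below describe single genes. The median log2 fold change was 1.37 over the 9 members and 0.01 over all tested genes. In these bulk libraries, a change in the share of cells that use a gene and a change in RNA per cell cannot be told apart.

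Below, values on the log2 scale are log2(scaled reads + 1), given in the order G1 clone 1, G1 clone 7, S and G2 for day 28, and G1 clone 1, G1 clone 7, S clone 1, S clone 7 and G2 for day 0.

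TCF7L1, the TCF factor known for repressing Wnt targets, lies at chromosome 2, 85133685 to 85309462 (coding span, plus strand, GRCh38), and showed the largest difference of the 9 tested members. Its log2 values were 13.45, 11.80, 11.81 and 12.73 at day 28, against 8.91, 8.15, 8.76, 6.91 and 8.65 at day 0. Every day 28 library lay above every day 0 library, with the G1 library of clone 1 the highest at day 28 and the S library of clone 7 the lowest at day 0. In reads, not scaled for depth, the smallest counts were 1448 at day 28 (G1 of clone 7) and 22 at day 0 (G1 of clone 7, the shallowest library). The S library of clone 7 at day 0 held 34. The difference was 4.06 ± 0.43 on the log2 scale (SE), a 16.7-fold change, with an adjusted p of 5.45e-05 (limma). TCF7L1 is a long gene, and 56.2% of the 1552 tested genes with spans of 100 to 300 kb were called higher. With the trend across span lengths removed from each library, its difference was 3.19 with an adjusted p of 0.000258.

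TCF7L2, which can activate or repress according to its partners and isoform, lies at chromosome 10, 112950757 to 113165972 (plus strand). Its log2 values were 12.05, 11.86, 11.02 and 11.40 at day 28, against 8.42, 11.00, 8.90, 9.12 and 9.81 at day 0. The groups did not overlap, but the lowest day 28 library (S) was barely above the highest day 0 library (G1 clone 7, the shallowest of all), and the other 4 day 0 libraries were lower. The difference was 2.02 ± 0.43 (4.07-fold, adjusted p = 0.00231). It was 0.99 with the span trend removed (adjusted p = 0.0406), and 0.16 with the narrowest entry of each gene that passed the filter, where the call was lost (adjusted p = 0.823).

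TCF7, the TCF factor best known from T cells, was represented by an entry at chromosome 5, 134142792 to 134151723 (plus strand), which leaves out the 5′ part of the gene, where other entries start at 134114907. The log2 values of TCF7 were 8.46, 7.70, 9.88 and 8.15 at day 28, against 9.64, 11.15, 10.10, 10.82 and 9.54 at day 0. The groups overlapped through the day 28 S library, which lay above 2 of the 5 day 0 libraries. TCF7 was lower, with a log2 fold change of -1.57 ± 0.42 (2.96-fold, adjusted p = 0.00844). Among the 3273 tested genes with spans of 0 to 10 kb, 37.9% were called lower. With the span trend removed TCF7 stood at -1.24 (adjusted p = 0.0317). The 3′ end of the TCF7 entry overlaps SKP1, a widely expressed ubiquitin ligase subunit, on the opposite strand. The libraries kept strand, but whether the counting used it is not given in the sources used here. A shorter TCF7 entry, 4.34 kb long, starts slightly upstream and ends before SKP1, and the surplus of the longer entry over it amounted to 1.49% to 12.4% of the SKP1 reads of the same library. The shorter entry had 9, 7, 136 and 0 reads at day 28, against 239, 18, 175, 101 and 85 at day 0, and was lower, with a log2 fold change of -3.07 ± 0.84 (adjusted p = 0.00923).

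LEF1, a TCF/LEF factor that often serves as a readout of active Wnt signalling, lies at chromosome 4, 108048672 to 108167767 (minus strand), and was not called. LEF1 had log2 values of 8.85, 7.95, 9.22 and 8.66 at day 28, against 9.29, 8.73, 9.13, 9.10 and 9.04 at day 0. The ranges overlapped, and the day 28 S library was above 4 of the 5 day 0 libraries. The log2 fold change was -0.34 ± 0.33 (adjusted p = 0.402). Quantile scaling (-0.83, adjusted p = 0.0479) and removal of the span trend (-0.92, adjusted p = 0.0419) brought it past the threshold, while the narrowest entry gave 0.81 (adjusted p = 0.161).

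CTNNB1 encodes β-catenin, the partner of all 4 factors, and lies at chromosome 3, 41224069 to 41239824 (plus strand). The log2 values of CTNNB1 were 14.07, 14.47, 14.00 and 13.84 at day 28, against 15.17, 14.93, 15.34, 15.18 and 15.08 at day 0. Every day 28 library lay below every day 0 library, and the spread within a day was the smallest of the 10 members, with an SD of 0.27 at day 28 (n = 4) and 0.15 at day 0 (n = 5). The difference was -1.03 ± 0.19, which is 2.05-fold lower at day 28, with an adjusted p of 0.000895. Among the 3483 tested genes with spans of 10 to 30 kb, 33.4% were called lower. With the span trend removed CTNNB1 stood at -0.74 (adjusted p = 0.00668). CTNNB1 remained the most densely read member on both days.

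**Figure D1:**
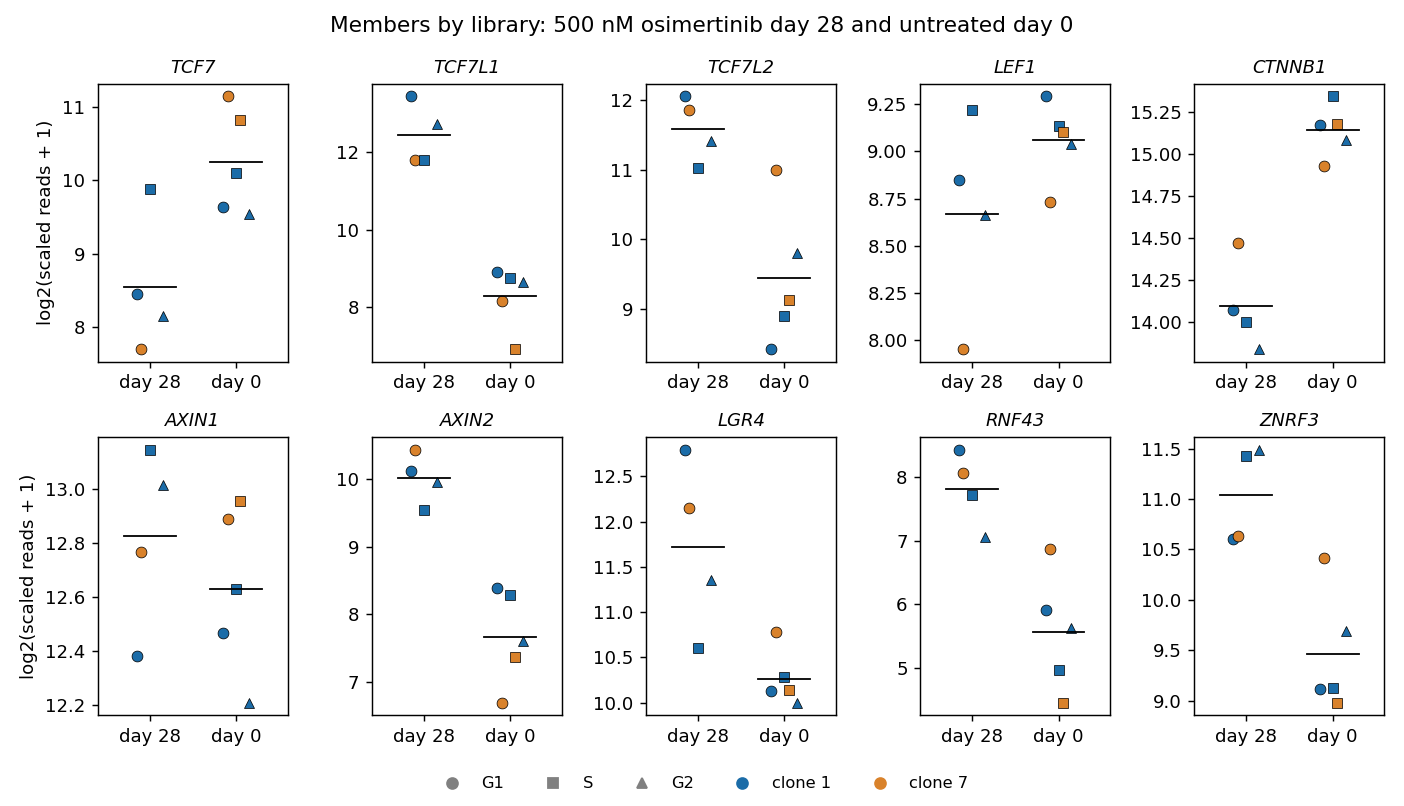
log2(scaled reads + 1) of the 10 members in each library (y axis; scales differ between panels), with day 28 of 500 nM osimertinib left of day 0; shapes give the phase, colours the clone, and horizontal bars the mean. TCF7L1, TCF7L2, AXIN2, RNF43 and ZNRF3 sit above day 0 in all 4 day 28 libraries, and CTNNB1 sits below. How many of all genes do so is not reported here.

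AXIN1 and AXIN2 encode the scaffold of the destruction complex, AXIN1 in most cells at a steady level and AXIN2 as a target gene of the pathway. AXIN1 (chromosome 16, 288122 to 347025, minus strand) had log2 values of 12.38, 12.77, 13.14 and 13.01 at day 28, against 12.47, 12.89, 12.63, 12.96 and 12.21 at day 0. The ranges overlapped and the log2 fold change of 0.25 ± 0.21 was not called (adjusted p = 0.346). AXIN2 (chromosome 17, 65529976 to 65558620, minus strand) had 10.11, 10.42, 9.53 and 9.96 at day 28, against 8.39, 6.70, 8.28, 7.37 and 7.61 at day 0. All 4 day 28 libraries were above all 5 day 0 libraries, and the lowest at day 0, G1 of clone 7, rested on 8 reads. AXIN2 was higher by 2.32 ± 0.42 (5.00-fold, adjusted p = 0.000957). Its span is 28.6 kb, in a class (10 to 30 kb) where 19.5% of genes were called higher, and removal of the span trend left 2.48 (adjusted p = 0.000674). A predicted protein-coding gene, AC004805.1, overlaps AXIN2 on the same strand, so reads of the 2 cannot be told apart by position.

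LGR4, the R-spondin receptor, lies at chromosome 11, 27367867 to 27472302 (minus strand). Its log2 values were 12.79, 12.15, 10.61 and 11.35 at day 28, against 10.13, 10.77, 10.28, 10.14 and 10.00 at day 0. Both G1 libraries and the G2 library of day 28 lay above all day 0 libraries, and the day 28 S library lay below the shallow G1 library of clone 7 at day 0 and above the other 4. LGR4 was higher by 1.37 ± 0.31 (2.58-fold, adjusted p = 0.00334), and by 0.87 with the span trend removed (adjusted p = 0.0242).

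ZNRF3, a Frizzled-removing ubiquitin ligase, lies at chromosome 22, 28883767 to 29053622 (plus strand). ZNRF3 had log2 values of 10.61, 10.63, 11.42 and 11.49 at day 28, against 9.12, 10.42, 9.13, 8.98 and 9.69 at day 0. The groups did not overlap, with the S and G2 libraries highest at day 28 and G1 of clone 7 highest at day 0. ZNRF3 was higher by 1.54 ± 0.34 (2.90-fold, adjusted p = 0.00321), and the call was lost with the span trend removed (0.69, adjusted p = 0.106).

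RNF43, the partner ligase of ZNRF3 (chromosome 17, 58354943 to 58415577, minus strand), was too low to be tested. It had 125, 108, 95 and 64 reads at day 28, against 67, 9, 15, 6 and 19 at day 0. On the log2 scale it averaged 7.82 ± 0.58 at day 28 (SD, n = 4) and 5.57 ± 0.92 at day 0 (SD, n = 5), with no overlap between the days. It was called higher in the fit with no filter and in that with a filter of 1 read per M reads in 4 libraries. AC004687.2, a predicted protein-coding gene, covers RNF43 on the same strand.

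**Figure D2:**
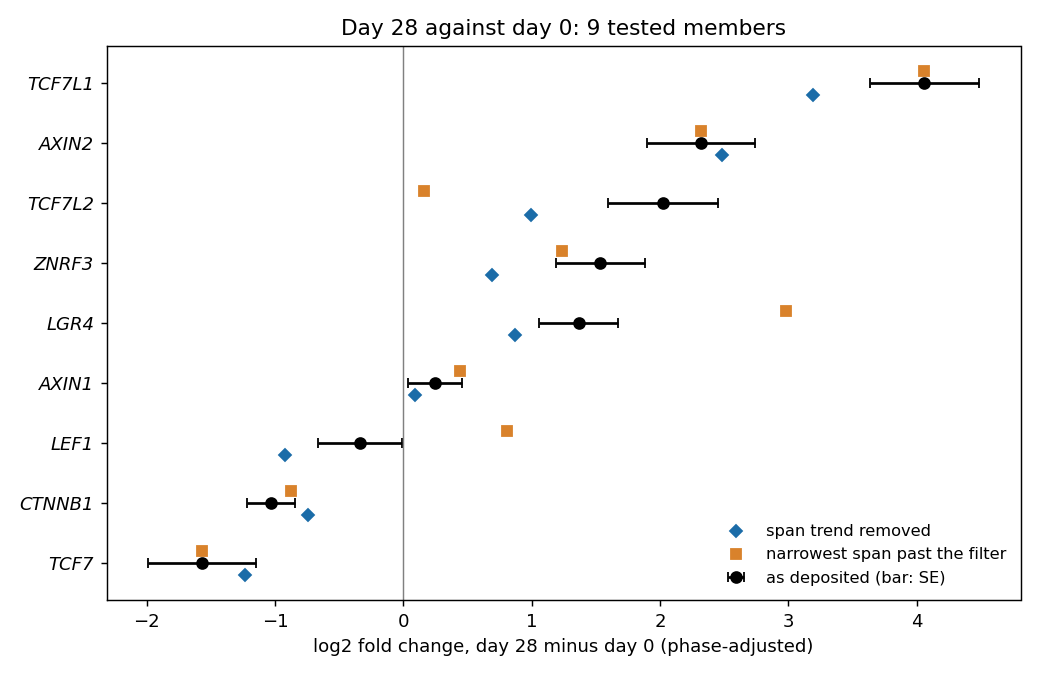
log2 fold change of day 28 over day 0, adjusted for phase (x axis), for the 9 tested members (y axis); black points are the values from the deposited scale with bars of 1 SE, blue diamonds the values with the span trend removed, and orange squares those of the narrowest entry past the filter. TCF7L1 stands at 4.06 and 3.19, TCF7L2 at 2.02, 0.99 and 0.16, and AXIN2 at 2.32 and 2.48. For TCF7L1, TCF7 and AXIN2 the narrowest entry past the filter was the representative entry itself. Their orange squares therefore repeat the black points and are no separate check.

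Because several transcripts of a member have nested or overlapping coding spans, reads could be placed in 24 stretches of the 10 genes. Each was a whole entry or an entry with a nested entry subtracted, and these were added to the table and fitted with it. The stretches were drawn after the values had been seen. At day 28, 13 of the 24 were called, 8 higher and 5 lower, beside 55.1% of all tested genes in the same fit. The 5 called lower include the representative TCF7 entry and the shorter TCF7 entry, which overlap and share reads. The filter on low values was not applied to stretches: 9 of the 24 had a mean log2 value under its limit of 7.01, 4 of them called (the inner stretch of TCF7L1 at 6.70, the shorter TCF7 entry at 6.55, the middle of LEF1 at 6.27 and the 5′ stretch of RNF43 at 5.68).

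In TCF7L2 the 5′ stretch was called and the 3′ stretch was not. The 5′ stretch, 175.2 kb with 0.626% of its bases in exons, held 1344, 1352, 881 and 1178 reads at day 28, against 149, 147, 129, 105 and 202 at day 0, and was higher by 2.62 ± 0.60 (adjusted p = 0.0035). The day 0 G1 library of clone 7 had 147 of its 159 TCF7L2 reads there, so it was the densest day 0 library in this stretch although the shallowest in depth. The 3′ stretch, 35.6 kb with 5.08% in exons, which begins just before the internal start shown above, held 105, 129, 57 and 123 reads at day 28, against 158, 6, 81, 40 and 131 at day 0. Its difference was 0.53 ± 0.49 and was not called (adjusted p = 0.378). The last 4.39 kb of the gene's span, 9.94% in exons, held 104, 23, 1 and 11 reads at day 28, against 78, 6, 26, 14 and 16 at day 0. That last stretch was not called either (-1.06 ± 0.99, adjusted p = 0.385), and it turned to 0.26 without the day 28 S library. Exons in the 3′ part encode the HMG box that binds DNA, while the first exons encode the β-catenin binding end.

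LGR4 likewise had its 5′ stretch called and its 3′ stretch not. Its 5′ stretch, 87.1 kb with 0.713% in exons, held 2103, 1621, 497 and 981 reads at day 28, against 179, 103, 74, 91 and 96 at day 0. That was a difference of 2.98 ± 0.54 (adjusted p = 0.00096). On the fitted log2 scale the days overlapped, with a lowest day 28 value of 10.10 and a highest day 0 value of 10.37. In reads per kb and per M reads, all day 28 densities lay above all day 0 densities. The margin was narrow for S at day 28 (0.140) over G1 of clone 7 at day 0 (0.134). The 3′ stretch, 17.4 kb with 12.9% in exons, held 486, 214, 208 and 285 reads at day 28, against 1081, 33, 541, 232 and 303 at day 0. It differed by -0.23 ± 0.40 (adjusted p = 0.649). Whether the 5′ and 3′ stretches of a gene differed from each other in their change was not tested.

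ZNRF3 and TCF7L1 were higher in each of their stretches. In ZNRF3 the 5′ stretch of 103.3 kb was higher by 2.51 ± 0.72 (adjusted p = 0.0116), which did not stay past the threshold once the S library of day 28 was left out (1.97, adjusted p = 0.0849). In that 5′ stretch the days overlapped. Its densities were 0.0663 to 0.189 reads per kb and per M reads at day 28 and 0.00512 to 0.0757 at day 0. The 3′ stretch of 66.5 kb, with most of the exons, was higher by 1.23 ± 0.29 (adjusted p = 0.00405), with 0.156 to 0.288 reads per kb and per M reads at day 28 and 0.0556 to 0.0817 at day 0. In TCF7L1 the inner 19.0 kb, 0.453% of it in exons, was higher by 3.55 ± 0.62 (adjusted p = 0.000769), and the rest of the span by 4.16 ± 0.46 (adjusted p = 6.65e-05).

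In AXIN2 the 3′ stretch of 27.8 kb held 388, 527, 302 and 481 reads at day 28, against 305, 8, 133, 42 and 64 at day 0, a difference of 2.43 ± 0.40 (adjusted p = 0.00058). The first coding exon alone, 0.815 kb, held 14, 29, 33 and 0 reads at day 28, against 72, 0, 21, 5 and 12 at day 0. These few reads gave a difference of 0.04 ± 1.11 (adjusted p = 0.978), and its sign turned when any of 4 libraries was left out. In CTNNB1 the 5′ stretch (-1.19 ± 0.27, adjusted p = 0.00327) and the middle (-1.18 ± 0.17, adjusted p = 0.00029) were lower, and the last 0.482 kb, all exon, was not called (-0.57 ± 0.23, adjusted p = 0.0572). That last stretch was called lower without day 28 G1 of clone 7 (-0.77, adjusted p = 0.00985) and without day 0 G1 of clone 1 (-0.72, adjusted p = 0.0255). Without any other single library it stayed uncalled. It was -0.49 without day 28 G1 of clone 1 and -0.40 without either G2 library.

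Of the 3 stretches of LEF1, the middle alone was called, and lower. That middle stretch of 14.7 kb held 19, 10, 57 and 0 reads at day 28, against 232, 6, 121, 58 and 95 at day 0 (-2.56 ± 0.89, adjusted p = 0.0291). That call was lost without any 1 of 4 libraries. It was -2.51 (adjusted p = 0.051) without day 28 G1 of clone 7. Without day 0 G1 of clone 1 it was -2.44 (adjusted p = 0.0718). Without either G2 library it was the same -1.40, since phase was a covariate and each day had a single G2 library. Those fits drop the G2 pair, with 0 reads at day 28 and 95 at day 0, from the day comparison. The 5′ stretch of 89.5 kb (0.14 ± 0.39, adjusted p = 0.773) and the 3′ stretch of 15.0 kb (0.04 ± 0.54, adjusted p = 0.96) were not called. In RNF43 the 5′ stretch was higher by 2.51 ± 0.80 (adjusted p = 0.0202), a call lost without any 1 of 3 libraries (day 28 G1 of clone 1, day 28 S or day 0 G1 of clone 1), and the 3′ stretch was not called (1.52 ± 0.95, adjusted p = 0.194). Also not called were the 2 stretches of AXIN1 (0.16 ± 0.21, adjusted p = 0.537, and 0.44 ± 0.30, adjusted p = 0.232) and the 5′ stretch of TCF7 (0.57 ± 0.71, adjusted p = 0.514). The second AXIN1 stretch was called at 0.72 without day 0 G1 of clone 7. Without any other single library it was uncalled, at 0.28 to 0.58. The day 28 G2 library had 136 reads in the 5′ stretch of LEF1 and 0 in its middle, 69 reads in the 5′ stretch of TCF7 and 0 in the shorter entry downstream, and 64 in the 5′ stretch of RNF43 and 0 in its 3′ stretch. The same library had the highest olfactory receptor density, 0.0273 reads per kb and per M reads, and the part of this in those counts was not tested. With that density subtracted from every gene, the same 7 members were called.

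**Figure D3:**
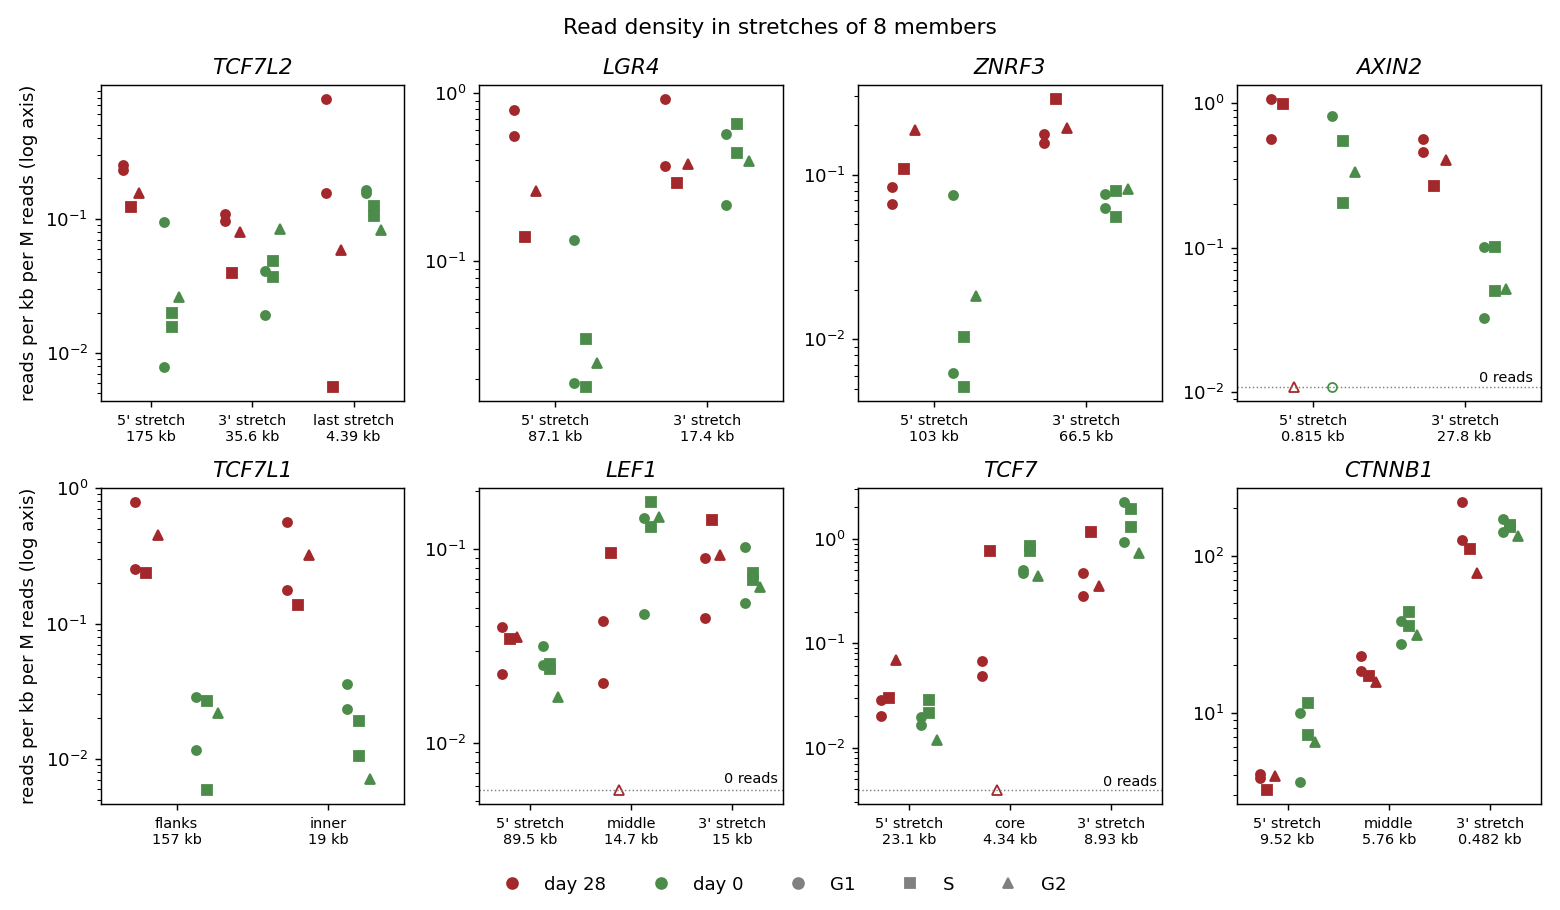
Reads per kb of stretch per M reads (log axis, scales differ between panels) in stretches of 8 members, with day 28 libraries in red left of day 0 libraries in green and shapes for the phase; open symbols on the dotted line are libraries with 0 reads. The 5′ stretches of TCF7L2 and LGR4 lie higher at day 28 and their 3′ stretches overlap, while both TCF7L1 stretches lie higher in all 4 day 28 libraries than in any day 0 library.

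Per kb of coding span, the order of the members differed between days. At day 28 the median densities were 12.3 reads per kb and per M reads for CTNNB1, 1.50 for AXIN1, 0.425 for AXIN2, 0.413 for TCF7, 0.403 for LGR4, 0.340 for TCF7L1, 0.175 for TCF7L2, 0.146 for ZNRF3, 0.0457 for RNF43 and 0.0422 for LEF1. At day 0 they were 22.2 for CTNNB1, 1.29 for TCF7, 1.13 for AXIN1, 0.111 for LGR4, 0.0601 for AXIN2, 0.0436 for LEF1, 0.0345 for ZNRF3, 0.0244 for TCF7L2, 0.0201 for TCF7L1 and 0.00709 for RNF43. At day 28 the ranges of neighbours in this order overlapped except between CTNNB1 and AXIN1, AXIN1 and AXIN2, and ZNRF3 and RNF43. At day 0 they overlapped except between CTNNB1 and TCF7, and AXIN1 and LGR4. TCF7L1 stood at rank 6 of 10 at day 28 and rank 9 at day 0, and LEF1 at rank 10 at day 28 and rank 6 at day 0. Since spans include introns, these densities are lower for long genes than a transcript level would be.

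Within G1, the phase with 2 libraries on each day, 6 of the 9 tested members were called at day 28, 4 higher and 2 lower, beside 39% of all tested genes, 19.8% higher and 19.1% lower. TCF7L1 was higher by 4.10 ± 0.73 (adjusted p = 0.0064), AXIN2 by 2.72 ± 0.64 (adjusted p = 0.0151), TCF7L2 by 2.25 ± 0.73 (adjusted p = 0.0435) and LGR4 by 2.02 ± 0.36 (adjusted p = 0.00619). TCF7 was lower (-2.31 ± 0.58, adjusted p = 0.0186), and so was CTNNB1 (-0.78 ± 0.26, adjusted p = 0.0477). ZNRF3 (0.85 ± 0.45, adjusted p = 0.164), LEF1 (-0.61 ± 0.47, adjusted p = 0.326) and AXIN1 (-0.10 ± 0.28, adjusted p = 0.786) were not called. With 1 of the 4 G1 libraries left out, 2 to 5 members were called: 2 without day 28 clone 1 and 3 without day 28 clone 7. LGR4 and TCF7L1 were called each time. TCF7L2 was 0.96 without day 0 clone 1 (adjusted p = 0.0869) and 3.54 without day 0 clone 7, and lost its call without either day 28 library too. ZNRF3 was 0.20 without day 0 clone 1, and 1.50 and called without day 0 clone 7 (adjusted p = 0.024). CTNNB1 lost its call in 3 of the 4 fits (adjusted p = 0.0769 to 0.177) and with no filter (adjusted p = 0.0642), TCF7 in 3 of the 4 (adjusted p = 0.0566 to 0.103) and AXIN2 without either day 28 library (adjusted p = 0.0707 and 0.0839). This fit lets all 6 groups of day and phase share their spread, so a group left with 1 library is assumed to vary like the others.

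The day 28 difference of LGR4 was 2.02 in G1, 0.40 in S and 1.35 in G2. That of ZNRF3 was 0.85 in G1, 2.37 in S and 1.79 in G2. For TCF7L1 it was 4.10 in G1, 3.98 in S and 4.08 in G2, and for CTNNB1 it was -0.78 in G1, -1.26 in S and -1.24 in G2. TCF7 gave -2.31 in G1, -0.58 in S and -1.39 in G2. A term for a different day effect in cycling (S or G2) cells called none of the 9 members, beside 0% of all 12391 tested genes, of which 1382 had an unadjusted p under 0.05 (limma). The lowest p among the members was that of LGR4, with a difference of -1.21 ± 0.51 between the day effects (adjusted p = 0.422).

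Between phases on the same day, no member was called (limma). Among day 28 libraries, S and G2 against G1 called 4.75% of all tested genes and 0 members, with 1 member at an unadjusted p under 0.05. LGR4 came nearest, with a log2 fold change of -1.49 ± 0.36 (adjusted p = 0.0606), and it passed the threshold with median-of-ratios scaling (-1.50, adjusted p = 0.0479) and with no filter (adjusted p = 0.0334). Its 2 cycling libraries at day 28 had log2 values of 10.61 (S) and 11.35 (G2), below both G1 libraries at 12.79 and 12.15. At day 0, S against G1 called none of the 9 members and 0% of all genes with limma, with 443 genes at an unadjusted p under 0.05 and a lowest unadjusted p of 0.153 among the members.

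**Figure D4:**
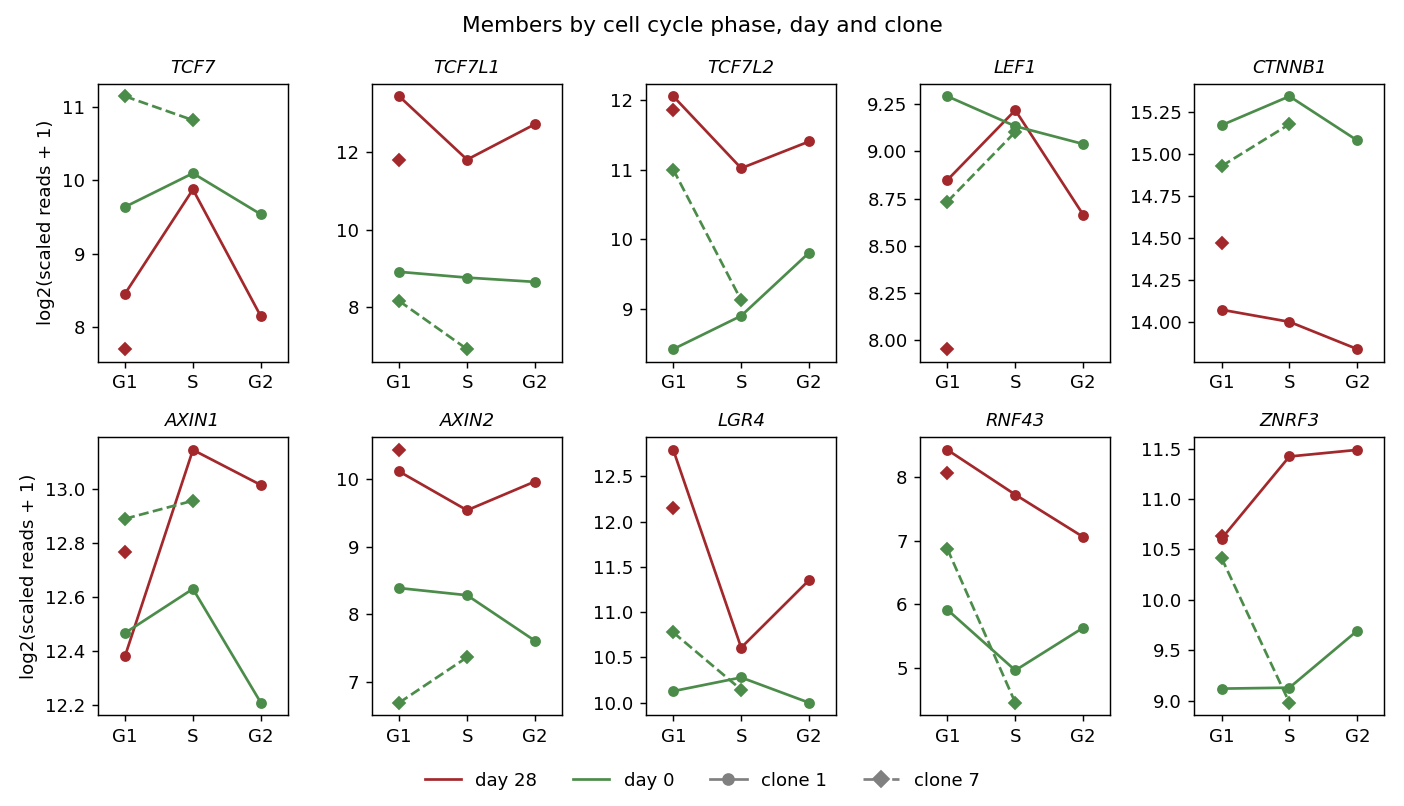
log2(scaled reads + 1) of the 10 members (y axis, scales differ between panels) in G1, S and G2 cells (x axis); red is day 28 and green day 0, circles with solid lines are clone 1 and diamonds with dashed lines clone 7. LGR4 at day 28 runs from 12.79 in G1 of clone 1 through 10.61 in S to 11.35 in G2, and TCF7L1 lies higher at day 28 than at day 0 in every phase.

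Between clones, adjusted for day and phase, 0 members were called with limma (1 at an unadjusted p under 0.05), beside 0.613% of all tested genes. TCF7L1 values in clone 7 were below those in clone 1 in all 3 matched pairs: 11.80 in clone 7 and 13.45 in clone 1 for G1 at day 28, 8.15 in clone 7 and 8.91 in clone 1 for G1 at day 0, and 6.91 in clone 7 and 8.76 in clone 1 for S at day 0. The difference was -1.30 ± 0.31 with an adjusted p of 0.0901, and it passed the threshold without the shallow day 0 G1 library of clone 7 (-1.38, adjusted p = 0.0475). Fitted in clone 1 alone, the day 28 difference called the same 7 members, with TCF7L1 at 3.89, TCF7L2 at 2.45, AXIN2 at 1.77, ZNRF3 at 1.86, LGR4 at 1.45, CTNNB1 at -1.23 and TCF7 at -0.93. The share of all tested genes called in that fit is not given here, so this count has no background beside it.

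The tested genes whose pattern over the 9 libraries was nearest to TCF7L1 and to TCF7L2 were found by the root mean square difference of log2 values after subtracting each gene's mean. For TCF7L1 they were SLIT2, ARHGAP40 and ALDH1A2, at 0.42, 0.46 and 0.47, where the median over all genes was 2.23. For TCF7L2 they were SLC35F3, RC3H1 and FMN1, at 0.20, 0.25 and 0.25, with a median of 1.37.

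Of 141 other genes of the pathway in 9 lists, 92 passed the filter, and 32 were higher and 15 lower at day 28, with a median log2 fold change of 0.28. These are counts beside the background of 55.1% given above, and nothing particular to a list is read from them. Without a filter on low values 60 of the 141 were called, and with the span trend removed 37, of which 22 were higher and 15 lower.

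Among 9 tested Wnt ligands, 4 were higher and 1 lower. WNT6 was higher by 3.53 ± 0.71 (adjusted p = 0.00174), WNT2B by 2.64 ± 0.68 (adjusted p = 0.00675) and WNT9A by 2.38 ± 0.44 (adjusted p = 0.00108). WNT5B, which acts mostly outside the β-catenin branch, was lower (-1.56 ± 0.48, adjusted p = 0.0168), and its call was lost without any 1 of 4 libraries. PORCN, the acyltransferase that Wnt ligands need for secretion, was lower (-1.80 ± 0.52, adjusted p = 0.0119), though not past the threshold once the S library of day 28 was left out, and it was 1 of 2 tested genes of secretion and R-spondins. Of 9 tested receptors none was higher and 2 were lower, the Frizzled genes FZD7 (-1.55 ± 0.38, adjusted p = 0.00525) and FZD2 (-1.02 ± 0.32, adjusted p = 0.0176). With the span trend removed 1 receptor was higher and 3 were lower, and 1 was higher without day 0 G1 of clone 7, day 0 G2 or day 28 G2. FZD7 and FZD2 are single-exon genes with short spans, 1.73 kb and 1.70 kb, and with the span trend removed FZD7 was called (-1.04) and FZD2 was not (-0.51, adjusted p = 0.18). FZD2 also lost its call without the day 0 G1 library of clone 1. Of 5 antagonists, DKK3 alone was called, higher by 1.15 ± 0.39 (adjusted p = 0.0262), and it lost the call without any 1 of 5 libraries, with quantile scaling and with no filter.

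In the destruction complex and Dishevelled list, 9 of 16 tested genes were higher and 2 lower, or 5 higher and 1 lower with the span trend removed. The tankyrases, which mark AXIN for degradation, were higher, TNKS by 1.85 ± 0.26 (adjusted p = 0.000215) and TNKS2 by 1.49 ± 0.26 (adjusted p = 0.00073), as were CSNK1G1, a casein kinase (1.26 ± 0.23, adjusted p = 0.00093), and APC, a scaffold of the complex (1.23 ± 0.24, adjusted p = 0.00156). With the span trend removed TNKS stood at 0.80, TNKS2 at 1.29 and CSNK1G1 at 0.59, all still called, and APC at 0.55 (adjusted p = 0.068). Of 20 tested co-factors of TCF, 7 were higher and 3 lower. The co-repressor TLE2 was higher by 2.05 ± 0.45 (adjusted p = 0.00284), the kinase HIPK2 by 1.73 ± 0.41 (adjusted p = 0.00431) and the acetyltransferase CREBBP by 1.46 ± 0.29 (adjusted p = 0.00174), while CTNNBIP1, an inhibitor that keeps β-catenin from TCF, was lower (-1.48 ± 0.33, adjusted p = 0.00293). TLE2 lost its call with its narrowest entry and HIPK2 with the span trend removed.

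Other genes often listed as Wnt targets split between directions, 4 higher and 5 lower of 14 tested. MITF was higher by 3.08 ± 0.48 (adjusted p = 0.00039) and SOX4 by 2.70 ± 0.31 (adjusted p = 7.38e-05), both transcription factors, and FOSL1, an AP-1 subunit (-2.34 ± 0.61, adjusted p = 0.00752), and the adhesion receptor CD44 (-2.02 ± 0.36, adjusted p = 0.000892) were lower. These 4 were called under every alternative run. Among 9 tested catenins and cadherins, 3 were higher and 1 lower. The α-catenin CTNNA2 (3.23 ± 0.88, adjusted p = 0.00916) and the δ-catenin CTNND2 (3.10 ± 0.63, adjusted p = 0.00186) have spans of 996.3 kb and 930.4 kb, and lost their calls with the span trend removed and with the olfactory receptor density subtracted, where CTNND2 turned to -0.34. CTNNA2 also lost its call without the day 28 S library. CTNNA1 (0.77 ± 0.19, adjusted p = 0.0055) lost its call with the span trend removed and with its narrowest entry, and the plakophilin PKP3 (-0.71 ± 0.27, adjusted p = 0.044) under 9 of the alternatives. Of 8 planar polarity genes, 4 were higher and none lower: PRICKLE2 by 2.96 ± 0.60 (adjusted p = 0.00182), ANKRD6 3.99-fold (adjusted p = 0.000569), INVS by 1.16 ± 0.24 (adjusted p = 0.00221) and PRICKLE1 by 1.15 ± 0.45 (adjusted p = 0.0455). INVS lost its call with the span trend removed, and PRICKLE1 under 13 of the alternatives.

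**Figure D5:**
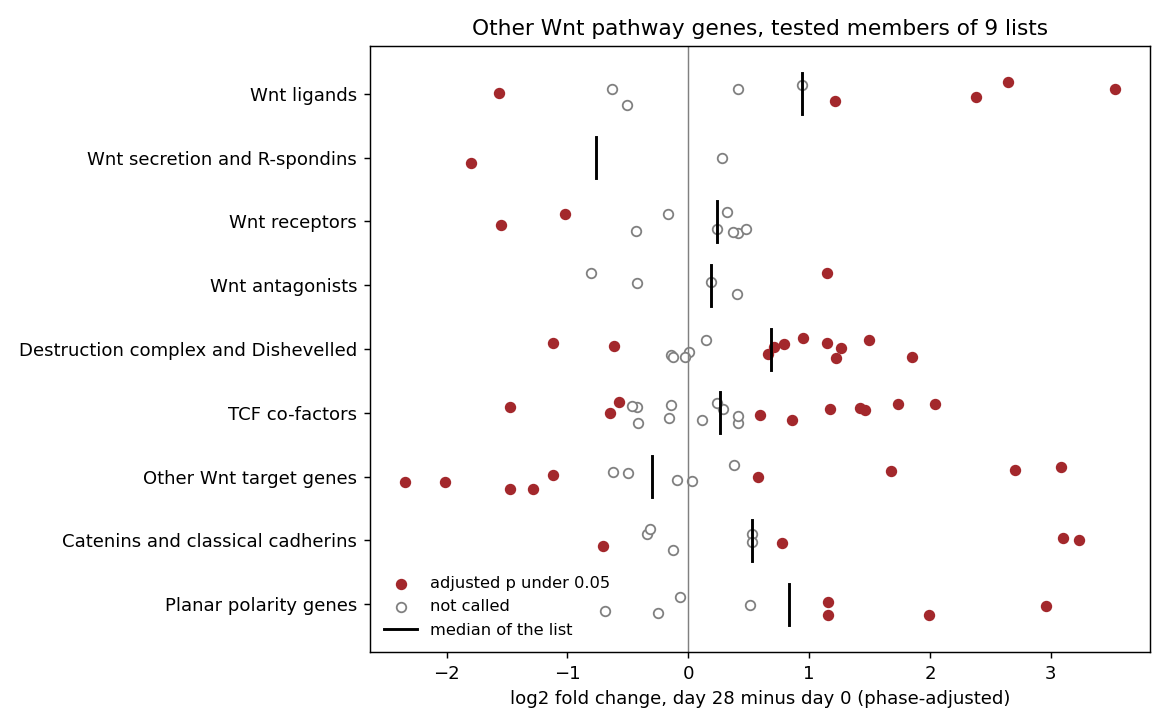
log2 fold change of day 28 over day 0, adjusted for phase (x axis), for the tested genes of 9 Wnt pathway lists (y axis); filled points passed an adjusted p under 0.05, open points did not, and vertical bars are list medians. Destruction complex genes have 9 filled points above 0 and 2 below, Wnt receptors 2 filled points below 0 and none above.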

How the data were processed

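Poly(A) RNA of sorted PC9 cells was sequenced as strand-specific 75-base single-end reads after 10 to 18 PCR cycles, per the labels' protocols. HISAT2 2.1.0, GRCh38 and DESeq2 are named in the submitters' processing notes; the counter, its use of strand and the scaling are not given in the sources used here. The values as deposited are log2 scaled counts, with 0.9 entered for no read, in 80037 entries. The 18 without a gene name were kept under their transcript name without its number. Dividing by 1 factor per library gave whole reads for 100% of values up to 1000 reads (tolerance 0.05). The recovered totals, summed over 1 entry per gene (overlapping genes share reads), averaged 43.0 M, where the labels' protocols give about 24 M reads per sample. Of 65967 entries named in GENCODE 29, 90.6% matched its coding spans. Of 59 member entries 49 were named there, and 43 of those 49 matched. Reads outside coding spans are not in these values.

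limma 3.58.1 (R 4.3.3; eBayes with trend) was fitted on log2(scaled reads + 1) for the 12391 genes with a mean log2 of at least 7.01, which is 10 reads in the shallowest library, and p-values were adjusted over all of them at a threshold of 0.05. The scripts were tested on simulated data. All 10 members were named whatever their result, with up to 4 called genes per list with the largest change and the 3 nearest patterns of TCF7L1, TCF7L2 and AXIN2 (those of AXIN2 are not reported here). The members, lists and tests were chosen with earlier results of these data known. Clone numbers pair the libraries, since the same clones were sorted on both days, and the deviations of clone 7 from clone 1 correlated across genes at 0.653, 0.115 and 0.296 between the 3 pairs of groups. Alternatives were 2 other scalings, 2 other filters, 2 other pseudocounts, a clone block, clone 1 alone, voom on the recovered reads, removal of the span trend, subtraction of the olfactory receptor density, the narrowest entry, and each library left out. Leaving out either G2 library gives the same day 28 difference, since phase was a covariate and each day had a single G2 library.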

Additional observations from a re-analysis of the deposited data

How the results depend on the processing

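At day 28, 6 to 8 members were called under every alternative run, and 7 with any 1 library left out; LEF1, TCF7L2 and ZNRF3 were those whose call changed, with RNF43 called under both other filters. The share of all tested genes called in each alternative fit is not given in this report. Member counts from those fits, in G1 and in clone 1 alone too, therefore have no background beside them. The narrowest entry turned LEF1 to 0.81. Median-of-ratios scaling moved the median of all genes to -0.10 and quantile scaling to -0.11, against 0.01 as deposited, and the direction of no called member turned. The clone as replicate block changed no member call in any comparison in which it was fitted, with 7 members called at day 28 and 6 in G1; under the block the uncalled values of LEF1's 3′ stretch (-0.058) and AXIN2's first exon (-0.13) turned sign. In G1 the count was 2 to 5 with 1 library left out. S and G2 against G1 at day 28 called 1 member with median-of-ratios scaling and 1 with no filter, and the clone comparison called 0 to 1 with 1 library left out. The day 28 value of AXIN1 in G1 ranged from -0.32 to 0.11 with 1 library left out. Likewise uncalled stretches crossed 0: AXIN1 flanks (-0.030 to 0.28), AXIN2's first exon (-0.56 to 1.10), LEF1 5′ (-0.019 to 0.36) and 3′ (-0.30 to 0.33), LGR4 3′ (-0.58 to 0.13) and the last 4.39 kb of TCF7L2 (-1.81 to 0.26). Of 24 stretches, 11 to 14 were called with 1 library left out. CTNND2 turned to -0.34 with the olfactory receptor density subtracted. In the 4 comparisons with no member called, 15 of 36 member values changed sign under at least 1 alternative, 7 of 9 of them for S against G1 at day 0. Single uncalled values there are therefore described only for LGR4 and TCF7L1, where they came nearest to a call. Those were chosen after the values had been seen. The cause of the changes described in this section was not tested. Depth limits RNF43, with 6 to 67 reads in day 0 libraries, and the first exon of AXIN2, with 0 to 72.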
